A study of Oikopleura dioica with 14 samples.

Results

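The genes described here are the 33 identifiers, of 17212 in the deposited tables, that were on in wild-type Oikopleura dioica at 6 hours post fertilization (hpf) and off at 4 and 8 hpf. On means 10 CPM or more in both wild-type 6 hpf libraries, and off means under 5 CPM in all 4 wild-type libraries of 4 and 8 hpf. CPM is a gene's estimated count as a share of the library total, scaled so that every library has the same sum. The 137 identifiers of 1 stretch of the numbering were left out beforehand, and none of them met the levels. The choice allowed up to 150 genes, but only 33 met the levels, so no member was trimmed.

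The study sequenced polyadenylated RNA from pools of whole animals to find genes that depend on Pax37b. It compared Pax37b-/- animals with Pax37b+/+ (wild-type) animals, and both came from crosses between Pax37b+/- parents and were told apart by genotyping part of each animal's lysate. Pax37b-/- pools numbered 2 at 4 hpf and 3 at each later stage, and every stage had 2 Pax37b+/+ pools. They are labelled as biological replicates without saying whether each came from its own cross, so p-values measure the spread between these pools, which may be partly technical. The mutant allele is not described further. The labelled material, whole animal, could not be checked against marker genes, because the identifiers carry no names.

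Oikopleura dioica is a tunicate that stays planktonic for life and keeps a larval body plan with a tail. Within hours of fertilization the embryo hatches and its trunk epithelium is patterned into fields of large secretory cells, which later build the filter-feeding house. Pax3/7 factors, to which Pax37b belongs by name, are paired-box transcription factors known in vertebrates for roles in the dorsal neural tube, the neural crest and muscle precursors. Genes on in a short window of an embryo's development include regulators that pattern a tissue and genes of its first differentiation. What the 33 genes do is not known here, since none of the 17212 identifiers matched the 17178 genes of the RefSeq table for assembly OKI2018_I68_1.0. No names, positions or sequences are therefore given, and the identifiers shown are limited to 4.

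Each 4 hpf library held 2803712 to 3941906 counts in total. The later libraries were deeper, with 10350791 to 15682947 counts, so stage and depth go together. Genes at 100 counts or more per library ranged from 781, in mutant 8 hpf replicate 3, to 4645, in mutant 6 hpf replicate 2. Libraries of 1 genotype and stage differed far beyond counting error, with a chi-square per degree of freedom of at least 101.8 in every pair. In bulk libraries fewer cells of a type and less RNA per cell cannot be told apart.

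In wild type the members spanned a wide range of levels at 6 hpf. These values chose the members and are a description with no test. The lower of the 2 wild-type 6 hpf values had a median of 89.5 CPM over the members and ran from 11.0 to 640 CPM, and 15 members were at 100 CPM or more in both libraries. Together the members made up 1.23% of wild-type 6 hpf replicate 1 and 0.792% of replicate 2. The 2 wild-type libraries were often far apart for the same gene. The higher value was a median of 3.81 times the lower, from 1.01 to 68.6 times, and 16 members were more than 4-fold apart. In the 4 wild-type libraries of 4 and 8 hpf the summed level of all 33 was 9.66 to 19.8 CPM. Genes on in both wild-type 6 hpf libraries numbered 1096, so the members were 3.01% of them. Just inside the limits, the lowest 6 hpf value of a member was 11.0 CPM and the highest value at another stage 4.99 CPM. Just outside, the nearest gene had 9.90 CPM at 6 hpf, and another had 5.10 CPM at 4 or 8 hpf. There were 9 identifiers with 5 to 10 CPM at 6 hpf that met the other limit, and 5 that met the 6 hpf limit with 5 to 10 CPM elsewhere.

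The members did not lie together in identifier order. The closest pair was 26 places apart and the median gap was 343.5 places, with the first member at place 23 and the last at place 16872. Estimated counts were fractional in a 6 hpf library for 4 of the 33 (more than 0.01 from a whole number), which happens when reads are divided among similar transcripts, so the levels of these 4 are uncertain. Over all identifiers the share was 14.3%.

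The Pax37b-/- libraries took no part in the choice, and in them the pattern was not repeated as a whole. None of the 33 members was at 10 CPM or more in all 3 mutant 6 hpf libraries and under 5 CPM in all 5 mutant libraries of 4 and 8 hpf. Over all identifiers 35 had that pattern in the mutants, 0.203%. At so low a background a count of 0 among 33 genes shows little about the members. By the same count, and with the same limit, the mutant list of 35 and the wild-type list of 33 shared 0 genes, which is 0% of each.

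**Figure D1:**
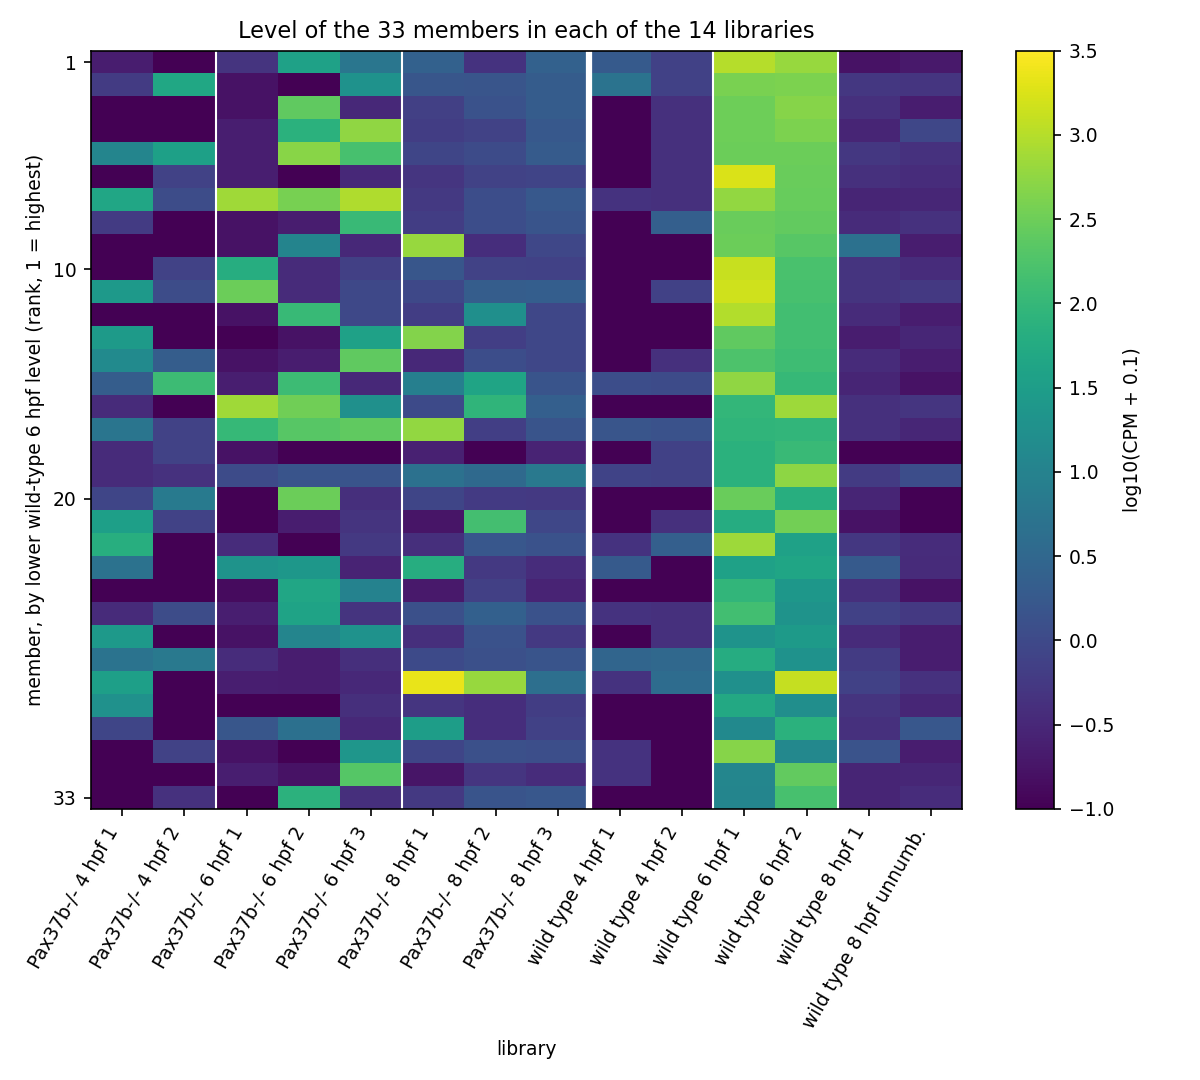
Levels of the 33 members (rows, by their lower wild-type 6 hpf level) in the 8 Pax37b-/- and 6 wild-type libraries (columns), as log10 of CPM plus 0.1. The 2 wild-type 6 hpf columns are filled because they chose the members, whereas 34 of the 99 values in the 3 mutant 6 hpf columns reach 10 CPM.

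Many members were nevertheless on in some mutant library of 6 hpf. At 10 CPM or more were 6 of 33 in mutant replicate 1, 16 in replicate 2 and 12 in replicate 3, or 18.2%, 48.5% and 36.4%. Over all 17212 identifiers the shares were 14.6%, 25.7% and 21.2%. Most of those identifiers were also on in wild type at other stages, so a closer background is the 7090 identifiers that were under 5 CPM in all 4 wild-type libraries of 4 and 8 hpf, outside the omitted numbers, as every member was. Of these 3.77%, 7.48% and 5.39% were at 10 CPM or more in the same libraries. The members' shares were higher than that background in each of the 3 libraries. Most of the 7090 were near 0 there, with medians of 0 to 0.153 CPM, whereas members were chosen as on in 2 libraries. The excess was not particular to 6 hpf, with 30.3% against 7.76% in mutant 4 hpf replicate 1 and 18.2% against 2.92% in 8 hpf replicate 1. In 8 hpf replicate 3 it was 0% against 1.11%.

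The mutant pools differed in which members were on. In at least 1 of the 3 mutant 6 hpf libraries 24 members reached 10 CPM (39.1% of all identifiers did so, and 13.9% of the 7090). Of the 24, 17 did so in a single library, which was replicate 1 for 2 members, replicate 2 for 9 and replicate 3 for 6. On in exactly 1 library were 22.3% of all identifiers. As a share of those on in any mutant 6 hpf library, the genes on in 1 alone were 70.8% of members, 82.8% of the 7090 and 57.1% of all identifiers. Another 4 were on in 2 libraries, and 3 in all 3 libraries. Over all identifiers 5.62% were on in all 3, and of the 7090 it was 0.381%. Of the 7090, 2.00% were on in exactly 2. The values were close to all or none. Of the 99 values of the 33 members in the 3 mutant libraries 59 were under 1 CPM, 6 lay between 1 and 10 CPM and 34 at or above 10 CPM, 19 of them at 100 CPM or more. Low values were common in these libraries, where the median over all identifiers was 0.0682 to 0.231 CPM and 14.6% to 25.7% reached 10 CPM. The share of all identifiers between 1 and 10 CPM was not counted, so the spread is not shown to be particular to the members.

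GSOIDG00010873001 had the highest minimum of all members in the mutant 6 hpf libraries. Its levels there were 728, 373 and 918 CPM, against 582 and 280 CPM in the wild-type 6 hpf libraries. The 2 groups overlapped, with 2 mutant libraries above both wild-type ones. At 4 hpf it had 45.9 and 1.01 CPM in mutants against 0.357 and 0.319 CPM in wild type. At 8 hpf it had 0.467, 1.06 and 1.64 CPM in mutants against 0.191 and 0.201 CPM in wild type. The 45.9 CPM in mutant 4 hpf replicate 1, from 181 counts, was the single mutant value that kept this gene from meeting the full pattern.

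Within the mutants, GSOIDG00010873001 averaged 673 ± 276 CPM at 6 hpf and 1.06 ± 0.588 CPM at 8 hpf (SD, n = 3 each). Its 6 minus 8 hpf log2 fold change was 9.74 (SE 2.34, edgeR adjusted p = 0.121). Every mutant 6 hpf library was above every mutant 8 hpf library. From 4 to 6 hpf the log2 fold change was 6.54 (SE 2.60, edgeR adjusted p = 0.221), with all 3 mutant 6 hpf libraries above both of 4 hpf. Neither passed the threshold of 0.05. The gene was named for its highest minimum over the mutant 6 hpf libraries, which favours higher values at 6 hpf in both comparisons. Over 18 alternatives the adjusted p ran from 9.99e-07 to 0.277 for the 6 minus 8 hpf difference and from 0.000135 to 0.504 for the 6 minus 4 hpf difference, and DESeq2 alone passed each.

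GSOIDG00013624001 had the next highest minimum in the mutant 6 hpf libraries. It had 103, 211 and 248 CPM in the mutant libraries, against 89.5 and 93.2 CPM in wild type, with no overlap and mutants higher. Of the 33 members 1 had this order, as did 1.03% of the 7090. The wild-type values chose the gene, so this difference has no test. It was also named for its high minimum over the mutant 6 hpf libraries, which favours high mutant values at 6 hpf here and below. At 4 hpf it had 5.58 and 0.673 CPM in mutants against 1.43 and 1.28 CPM in wild type. At 8 hpf 1 mutant library stood apart, with 589 CPM in replicate 1 beside 0.580 and 1.37 CPM, against 0.319 and 0.201 CPM in wild type.

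The 589 CPM in mutant 8 hpf replicate 1, from 7568 counts, was above every 6 hpf value of GSOIDG00013624001. Its mutant log2 fold change was 7.33 for 6 minus 4 hpf (SE 2.89, edgeR adjusted p = 0.231) and 0.05 for 6 minus 8 hpf (SE 2.56, edgeR adjusted p = 0.99). Over 18 alternatives the adjusted p ran from 0.00126 to 0.519 for the 6 minus 4 hpf difference, which DESeq2 alone passed, and from 0.278 to 1 for the 6 minus 8 hpf difference. The direction at 6 against 8 hpf was not stable, being positive in 10 of the 18 alternatives. Those 10 include the alternatives that keep the main fit's fold changes, namely the 1.5-fold limit and taking every identifier that met the levels.

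The third member on in all 3 mutant 6 hpf libraries had 729, 334 and 18.4 CPM there, against 93.7 and 702 CPM in wild type. It was off at 4 hpf in the mutants, at 0.254 and 0 CPM, and at 8 hpf it had 0.934, 86.7 and 2.19 CPM. Each of the 3 members that were on in every mutant 6 hpf library was therefore also over 5 CPM in 1 or 2 mutant libraries of another stage.

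The remaining 9 members stayed under 5 CPM in all 3 mutant 6 hpf libraries. Their lower wild-type 6 hpf value had a median of 38.1 CPM, from 13.5 to 294 CPM, whereas it was 130 CPM at the median for the 24 members that were on in a mutant 6 hpf library. The values of the 9 and of the 24 overlapped.

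GSOIDG00002525001 had the highest wild-type level among these 9. It had 0.136, 0 and 0.230 CPM in the mutant 6 hpf libraries, against 1727 and 294 CPM in wild type. As counts the mutant values were 2, 0 and 3, and the wild-type values 26311 and 4135. It was under 1 CPM in every other library, mutant and wild type. GSOIDG00009585001 had the lowest mutant 6 hpf maximum of all. Its levels were 0.0682, 0 and 0 CPM in mutants, or 1 count in 3 libraries, against 74.0 and 113 CPM in wild type. It too was under 1 CPM in every other library. No fold or test of mutants against wild type is given for either, because the wild-type values chose the genes.

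These were also the only 2 members under 5 CPM in all 8 mutant libraries, where 39.8% of all identifiers and 70.6% of the 7090 were. Both of them had too few counts in the mutant libraries to enter the main edgeR fit. Altogether 19 of 33 members had all 3 mutant 6 hpf libraries below both wild-type ones, which 16.5% of all identifiers had. The choice asked for high wild-type values and so set part of this count, and nothing is read from it. In the other 14 members at least 1 mutant 6 hpf library reached or passed the lower wild-type value.

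**Figure D2:**
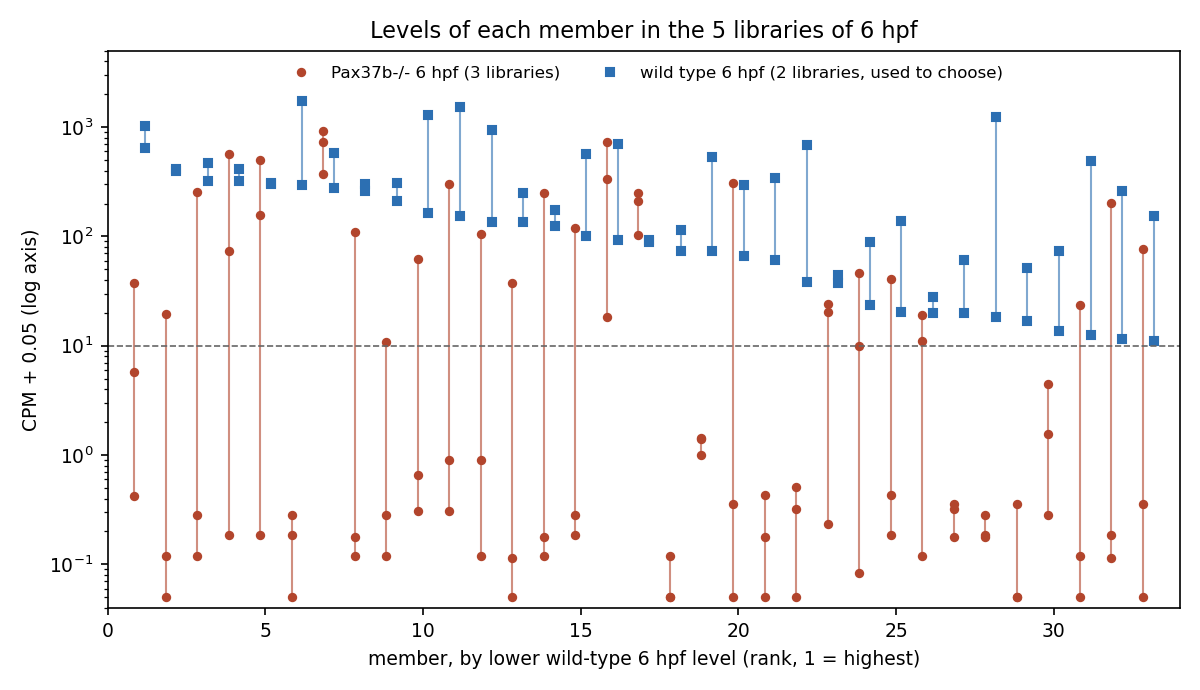
CPM plus 0.05 (log axis) of each member in the 3 Pax37b-/- libraries (circles) and the 2 wild-type libraries (squares) of 6 hpf, with a line over each group's range and a dashed line at 10 CPM. The mutant values of 17 members reach 10 CPM in a single library, and 9 members have none there.

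Several members were on in mutants at 4 or 8 hpf, when all wild-type libraries were off by choice. At 4 hpf 10 members were at 10 CPM or more in mutant replicate 1 and 3 in replicate 2, or 30.3% and 9.09%, against 32.8% and 23.8% of all identifiers and 7.76% and 4.33% of the 7090. Only 1 member was on in both. At 8 hpf 6, 5 and 0 members were on in mutant replicates 1, 2 and 3, or 18.2%, 15.2% and 0%, against 10.0%, 13.8% and 4.45% of all identifiers and 2.92%, 4.30% and 1.11% of the 7090. Replicate 3, with 0 members, was also the library with the fewest genes at 100 counts. In total 18 of 33 members reached 10 CPM in some mutant library of 4 or 8 hpf, as did 47.0% of all identifiers and 16.7% of the 7090.

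One of these was far higher at 8 hpf than at 6 hpf in mutants. It had 0.136, 0.129 and 0.230 CPM in the mutant 6 hpf libraries and 2287, 643 and 4.29 CPM in those of 8 hpf. In wild type it had 18.2 and 1251 CPM at 6 hpf and 0.638 and 0.335 CPM at 8 hpf. It alone made up 55.7% and 66.9% of the members' summed level in mutant 8 hpf replicates 1 and 2. A further 2 members were at 635 and 469 CPM in mutant 8 hpf replicate 1 and under 1 CPM in replicates 2 and 3.

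**Figure D3:**
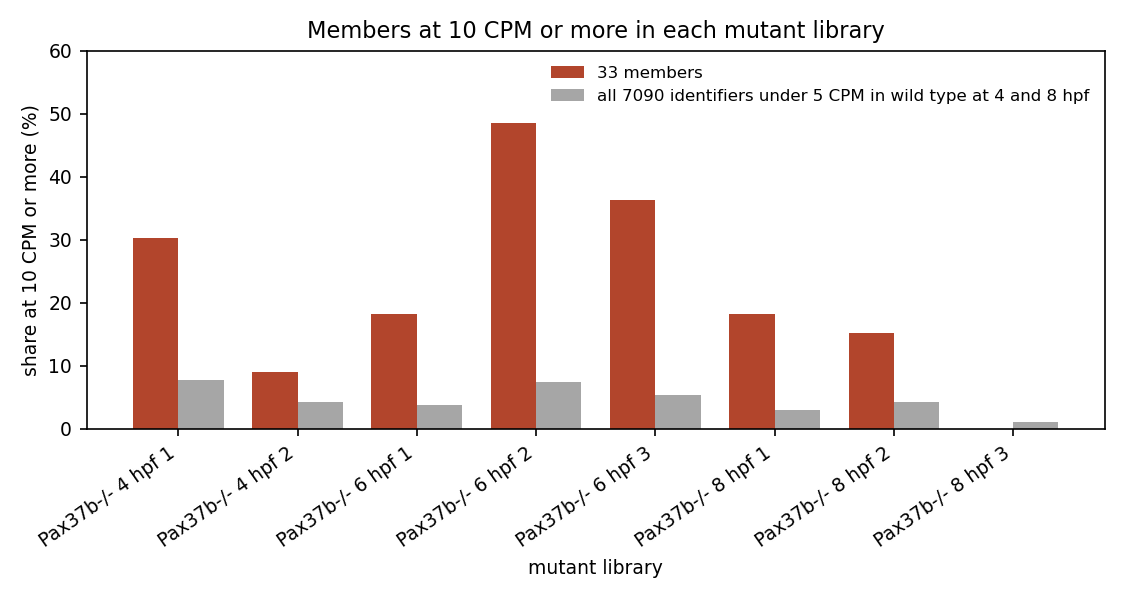
Share of the 33 members (left bar of each pair) and of the 7090 identifiers under 5 CPM in the 4 wild-type libraries of 4 and 8 hpf (right bar) that were at 10 CPM or more in each of the 8 Pax37b-/- libraries. The members' share is highest, at 48.5%, in 6 hpf replicate 2, and is 0% in 8 hpf replicate 3.

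Stage means of the members within the mutants were most often highest at 6 hpf. The highest of the 3 mutant stage means lay at 4 hpf for 7 members, at 6 hpf for 17 and at 8 hpf for 9. Over all identifiers 26.0%, 26.1% and 45.8% had it at 4, 6 and 8 hpf, and of the 7090 14.2%, 15.3% and 65.7%. A mean over 2 or 3 libraries can rest on 1 of them, and few members separated the stages fully. All 3 mutant 6 hpf libraries were above both of 4 hpf for 11 members and below both for 3, against 10.7% and 15.2% of all identifiers. All 3 were above all 3 of 8 hpf for 1 member, GSOIDG00010873001, and below for 4, against 3.59% and 35.9%. These background shares include many identifiers at very low levels, whose order of stages can rest on a few counts. The median over all identifiers was 0.467 to 0.869 CPM in mutant 8 hpf libraries and 0.0682 to 0.231 CPM in those of 6 hpf.

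The mutant stages were then tested over all genes in 1 fit of the 8 mutant libraries, with edgeR's quasi-likelihood test. It held 10873 genes, among them 29 of the 33 members. No gene passed an adjusted p of 0.05 in either direction (0% of genes, and 0 members) for 6 minus 4 hpf or for 6 minus 8 hpf. At an unadjusted p under 0.05, 8 members were higher and 2 lower at 6 than at 4 hpf, where 13.8% and 13.7% of all genes tested were. In the 6 minus 8 hpf comparison 7 members were higher and 2 lower at 6 hpf, where 19.1% and 17.1% of all genes tested were. The spread behind these tests was wide, with a common biological coefficient of variation of 1.59, and a count of 0 does not show that no gene changed.

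The other tools called some members. DESeq2 gave an adjusted p for 15 members at 6 against 4 hpf and passed 8 as higher and 0 as lower, where 18.9% and 14.1% of all genes with an adjusted p passed. For 6 against 8 hpf it gave 14 members an adjusted p and passed 4 as higher and 1 as lower, where 17.1% and 6.93% passed. In both comparisons most members without an adjusted p were on in a single mutant 6 hpf library. Every member on in more than 1 of those libraries had an adjusted p. The members with an adjusted p therefore do not stand for all members. Why DESeq2 gave the others none was not tested. limma-voom passed 1 member as higher and 0 as lower for 6 against 4 hpf (0.616% and 0.331% of all genes), and 0 in either direction for 6 against 8 hpf (0.239% and 0.0460%). Without mutant 4 hpf replicate 2, edgeR passed 1 member and 6.25% of all genes as lower at 6 than at 4 hpf. The lone 4 hpf library was then assumed to vary like the other groups. With upper-quartile factors 2 members and 14.5% of all genes passed as lower at 6 than at 8 hpf.

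Because the wild-type 6 hpf libraries chose the members, their own agreement cannot be compared with the mutants directly. The choice was therefore repeated with 1 wild-type 6 hpf library at a time, keeping the limit of 5 CPM in the 4 other wild-type libraries, and read in the libraries left out. The left-out wild-type pool's share of chosen genes on lay within the range of the mutant pools for one choice and below it for the other. On wild-type replicate 1 alone 162 identifiers were chosen. Of these 13.0%, 28.4% and 19.8% were at 10 CPM or more in mutant 6 hpf replicates 1, 2 and 3, against 20.4% in wild-type replicate 2. On wild-type replicate 2 alone 437 were chosen. Of these 14.6%, 25.2% and 16.0% were on in the mutant libraries, against 7.55% in wild-type replicate 1. With 1 left-out wild-type library there is no test of this difference.

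Libraries differ in how many genes they hold at 10 CPM, so each share was also divided by that of the 7090 identifiers in the same library. For the 162 genes the ratio was 3.44, 3.80 and 3.67 in mutant replicates 1, 2 and 3 and 3.30 in wild-type replicate 2. For the 437 genes it was 3.89, 3.37 and 2.97 in the mutants and 3.30 in wild-type replicate 1. The wild-type ratio lay within the mutant range for the 437 genes and just below it for the 162. The same number appears for both wild-type libraries because each ratio counts the same 33 shared genes.

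**Figure D4:**
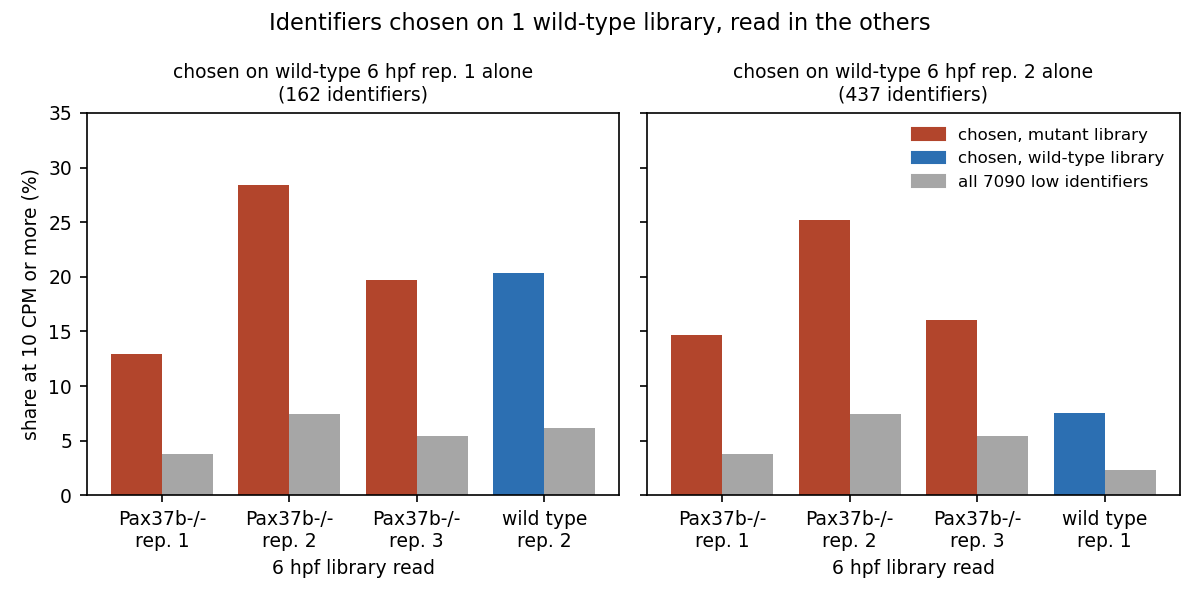
Share of identifiers at 10 CPM or more in the 6 hpf libraries that did not choose them, for 162 identifiers chosen on wild-type replicate 1 (left) and 437 chosen on replicate 2 (right), each beside the share of all 7090 low identifiers (grey). The left-out wild-type library lies within the range of the 3 Pax37b-/- libraries at 20.4% (left) and below all 3 at 7.55% (right).

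The mirrored choice was read as the same kind of ratio. Identifiers at 10 CPM or more in 1 mutant 6 hpf library and under 5 CPM in all 5 mutant libraries of 4 and 8 hpf numbered 412, 803 and 602 for replicates 1, 2 and 3. Divided by the share of all identifiers that were as low in those 5 mutant libraries, they were on 2.74 to 2.97 times as often in another mutant 6 hpf library and 2.57 to 3.45 times as often in a wild-type 6 hpf library. The 35 genes with the full pattern in the mutants were read the same way. In wild type 22 of them were on in at least 1 of the 2 libraries of 6 hpf and 3 in both, and 26 were on in some wild-type library of 4 or 8 hpf. Of the 8396 identifiers that were as low in the mutants at 4 and 8 hpf the shares were 10.6%, 0.774% and 29.3%.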

How the data were processed

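Each stage has 1 table, in which the authors deposited estimated counts per gene identifier with a column per library and no scaling. The submitters' processing notes name kallisto 0.46.0 and DESeq2. No source used here names the transcript index or annotation. Per the labels' protocols RNA came from pooled animals and a low-input kit was used. Between 4.22% and 10.8% of a library's estimated counts were fractional (by more than 0.01). They were used as deposited for CPM and rounded for the tests. A wild-type 8 hpf column whose number no titled sample has was assigned to its group.

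The members, lists and tests were chosen with earlier results of these data known. The mutant stages were fitted on the 8 mutant libraries in R 4.3.3 with edgeR 4.0.16 (filterByExpr, TMM, two-sided quasi-likelihood F test, Benjamini-Hochberg adjustment over every gene in the fit, threshold 0.05). As alternatives, TMM was replaced by RLE or upper-quartile factors and edgeR by limma-voom (3.58.1) or DESeq2 (1.42.0). The low-count filter was dropped or set to a mean of 5 CPM, and calls were limited to 1.5-fold changes. That limit, and taking every identifier that met the levels, keep the main fit's fold changes but are counted among the alternatives. Further fits took in all 14 libraries, a replicate block, or all but 1 mutant library. Levels were also read at other cut-offs and after thinning to 2803712 counts. At most 4 identifiers were named: the 2 members with the highest minimum and the 2 with the lowest maximum over the mutant 6 hpf libraries. Wild type was not tested against mutants, because its values chose the members. No source mentions molecular identifiers, so read depth alone may understate the error. Tables and plots used Python 3.11.15 with pandas 2.3.3, scipy 1.17.1, numpy 2.4.6 and matplotlib 3.10.9.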

Additional observations from a re-analysis of the deposited data

Results flagged for a closer look

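Only the 4 named members were screened here. In 2 of them the mutant libraries of 6 hpf lay below those of another stage, whereas the choice fixed the reverse order in wild type. Both were named for having the lowest maximum over the mutant 6 hpf libraries, so the way they were picked favours this order. Over all 33 members, 3 lay below both mutant libraries of 4 hpf and 4 below all 3 of 8 hpf. The rest of this paragraph is about the 2 named members. The levels were at the floor of a few counts, and neither gene entered the main edgeR fit. In the alternative fit without a low-count filter, GSOIDG00009585001 had a 6 minus 4 hpf log2 fold change of -2.35 (edgeR adjusted p = 0.458). There GSOIDG00002525001 had a 6 minus 8 hpf log2 fold change of -3.12 (edgeR adjusted p = 0.0916). Neither passed the threshold. For GSOIDG00009585001 the highest mutant 6 hpf level, 0.0682 CPM, was below both mutant 4 hpf levels (0.254 and 0.673 CPM). These are 1, 0 and 0 counts at 6 hpf and 1 and 2 counts at 4 hpf, where the libraries were shallower, and 15.2% of all identifiers had this order. For GSOIDG00002525001 the highest mutant 6 hpf level, 0.230 CPM, was below all 3 mutant 8 hpf levels (0.389, 0.676 and 0.730 CPM), or 2, 0 and 3 counts at 6 hpf and 5, 7 and 8 counts at 8 hpf. This order was common, with 35.9% of all identifiers and 49.7% of the 7090 identifiers low in wild type at 4 and 8 hpf. No group held the 4 libraries needed to look for a library that stands apart.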

How the results depend on the processing

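Only 33 identifiers met the levels, so taking all of them in place of the highest 150 changed nothing. The number of members on in all 3 mutant 6 hpf libraries stayed within 1.5 times of 3 in 12 of 13 alternatives and ran from 3 to 6 with 1 mutant library left out, being 6 without mutant 6 hpf replicate 1. Fewer libraries then had to be on, and the number over all identifiers was 2041, against 967 with all libraries. The number with the full pattern in mutants was 0 in 10 of 13 alternatives and ran from 0 to 1 with 1 library left out, being 1 without mutant 6 hpf replicate 1, 4 hpf replicate 1 or 8 hpf replicate 2, where 169, 79 and 53 of all identifiers had the pattern, against 35 with all libraries. Of members called higher at 6 than at 4 hpf, DESeq2 gave 8 and limma-voom 1 in place of 0, and at 6 than at 8 hpf DESeq2 gave 4. Of members called lower at 6 than at 8 hpf, upper-quartile factors gave 2 and DESeq2 1. The number called lower at 6 than at 4 hpf ran from 0 to 1 with 1 library left out, being 1 without mutant 4 hpf replicate 2, when the other groups supplied the spread of the lone 4 hpf library. The cause of these differences was not tested. Replicate numbers did not pair the mutant libraries, with correlations of same-numbered deviations between -0.0161 and 0.0146, and with the replicate block 0 members were called in either direction. Chosen on wild-type replicate 1 or 2 alone, the shares were 28.4% and 25.2% in mutant replicate 2 and 19.8% and 16.0% in replicate 3. GSOIDG00013624001 had a negative 6 minus 8 hpf log2 fold change of -0.80 with RLE factors, -2.55 with upper-quartile factors and -0.73 with DESeq2. It was also negative without a filter, at -1.004, and at a mean of 5 CPM, at -0.45. Without 1 of 3 libraries (mutant 6 hpf replicate 1 and 8 hpf replicates 2 and 3) it was -0.90 to -0.27. Without mutant 8 hpf replicate 1 it was positive, at 7.33. The scaling moved the median log2 fold change of all genes tested, which was 1.78, 2.58 and 1.85 with TMM, RLE and upper-quartile factors for 6 minus 4 hpf and 0.41, -0.59 and -2.90 for 6 minus 8 hpf. At 4 hpf the totals are smallest, so 10 CPM rests on fewer counts there.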
